A study of Mus musculus with 12 samples.

Results

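Tryptophan (Trp) is carried into and out of cells by transporters that it shares with other large neutral amino acids. Transcripts of 8 genes were followed here among the 24062 genes counted in 12 mouse RNA-seq libraries. They encode carriers of Trp or of other neutral amino acids, and the heavy chain of some of these carriers. The genes were chosen by name: Slc7a5, Slc7a8, Slc3a2, Slc1a5, Slc43a1, Slc43a2, Slc16a10 and Slc6a19. Each library came from 1 mouse, with 3 mice in each of 4 groups. Of these, 6 were livers of male LAP-tTA/TRE-MYC mice on the FVB background, in which a tetracycline-controlled activator made in hepatocytes drives human MYC. The transgene had been active in both diet groups since doxycycline was withdrawn at birth (MYC-ON). Mice 101, 102 and 103 ate the control diet, labelled as the complete diet, and mice 105, 107 and 108 ate the No-Trp diet. The other 6 were tumors of HCC53N cells, mouse liver cancer cells that have lost p53 and carry mutant NRAS. They grew subcutaneously in female NOD SCID mice. These hosts lack functional T and B cells, and all 6 tumors come from 1 cell line. The labels also describe the tumor cells as MYC-ON. Control hosts were mice 40, 41 and 43 and No-Trp hosts were mice 35, 36 and 37. Both diets were given for 21 days, and the only age in the labels, 45 days, is that of MYC males compared with wild-type males, so no age is tied to the diet groups. The 2 models differ in sex, host strain, site and cell mixture, and these cannot be told apart where livers and xenografts are compared.

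Large neutral amino acids cross the plasma membrane mainly by exchange. The light chain LAT1 (Slc7a5) is held at the cell surface by the heavy chain 4F2hc (Slc3a2, CD98) and swaps an amino acid from inside, often glutamine, for one from outside such as Trp or leucine, while ASCT2 (Slc1a5) exchanges glutamine and other small neutral amino acids with sodium. LAT2 (Slc7a8) is a second light chain of the same heavy chain, LAT3 (Slc43a1), LAT4 (Slc43a2) and TAT1 (Slc16a10) let amino acids through without exchange, and B0AT1 (Slc6a19) is the sodium-coupled transporter of gut and kidney. LAT1 and ASCT2 are known as targets of MYC and, with several other transporters, of ATF4, the transcription factor that is made when amino acids run short.

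Reads counted on genes ranged from 14660963 to 26085349 per library. Livers 101 and 108 and control xenografts 41 and 43 are marked as resubmitted in the deposit, so that 2 of 3 control xenografts and no No-Trp xenograft have it, and this mark was treated as a possible batch. The precursor ribosomal RNA Rn45s took 12.1% of the counts in liver 101 and 0.261% to 2.22% in the other libraries. Transcripts of Trp53 were at 17.5 to 23.0 CPM in the xenografts and 46.6 to 133 CPM in the livers, and Nras was at 235 to 484 CPM and 46.6 to 106 CPM. Albumin (Alb), the most abundant hepatocyte transcript, was at 74.9 to 343 CPM in the xenografts against 4534 to 87845 CPM in the livers, whereas the bile duct marker Krt19 was at 169 to 646 CPM against 6.14 to 19.8 CPM. The tumors labelled as liver cancer thus held little of the hepatocyte transcripts. CPM are counts scaled by the TMM-adjusted size of each library.

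Promoter windows from RefSeq, each from 250 bases before to 50 bases after an annotated start on GRCm38.p6, were read for 6 of the 8 genes (7 windows, none for Slc7a5 and Slc1a5). Both strands were searched for the E-box CACGTG, which MYC with MAX can bind, and for TGATGNAA, a form of the element that ATF4 binds with a C/EBP partner. The windows of the SLC43 pair are shown because these close relatives had fold changes of opposite sign in the livers, and of the 2 windows of Slc43a2 the one with the lower coordinates is printed. The E-box, in capitals, starts 64 bases before the annotated start of the Slc43a1 window. It was the only match to either motif in the 7 windows, so no matches overlapped. The windows of Slc43a1, Slc3a2 and Slc6a19 and the second window of Slc43a2 lie inside the gene spans given below, downstream of the outermost start. The outermost starts of Slc43a1, Slc3a2 and Slc6a19 were not searched.
Slc43a1, chr2:84840073-84840372, + strand: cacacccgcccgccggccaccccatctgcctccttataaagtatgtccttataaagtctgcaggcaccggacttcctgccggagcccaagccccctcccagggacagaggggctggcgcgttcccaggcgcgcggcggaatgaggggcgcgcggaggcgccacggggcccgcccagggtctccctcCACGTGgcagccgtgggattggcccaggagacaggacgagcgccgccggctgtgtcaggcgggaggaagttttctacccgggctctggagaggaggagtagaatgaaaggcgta
Slc43a2, chr11:75531444-75531743, + strand: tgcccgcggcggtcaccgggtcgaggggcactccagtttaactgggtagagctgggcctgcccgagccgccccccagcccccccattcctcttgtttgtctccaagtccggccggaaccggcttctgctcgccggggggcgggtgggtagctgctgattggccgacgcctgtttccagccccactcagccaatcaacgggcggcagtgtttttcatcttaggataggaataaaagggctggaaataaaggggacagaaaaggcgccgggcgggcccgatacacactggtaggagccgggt
Of all 32851 windows of the same length, 7.15% hold the E-box letters and 3.97% the ATF4 letters. A match describes the letters of a window and is not a binding site shown here.

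To compare the genes with each other, levels were divided by exon length (RPKM, that is CPM per kilobase of merged exons). The heavy chain Slc3a2 led in every group, at 50.5 ± 3.89 RPKM in control livers, 41.7 ± 14.8 in No-Trp livers, 68.6 ± 8.89 in control xenografts and 90.9 ± 26.5 in No-Trp xenografts (mean ± SD, n = 3 mice each). In control livers Slc7a5 (39.2 ± 9.52 RPKM) and Slc1a5 (36.4 ± 9.08 RPKM) came next, and the ranges of these 3 genes overlapped from one to the next. Below them Slc16a10 (17.5 ± 2.45), Slc43a1 (12.6 ± 2.29), Slc7a8 (5.92 ± 1.76), Slc43a2 (2.76 ± 0.854) and Slc6a19 (0.658 ± 0.213 RPKM) followed with no overlap between neighbours.

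In No-Trp livers Slc16a10 stood second, at 19.8 ± 4.43 RPKM, and overlapped Slc7a5 at 13.2 ± 7.51 RPKM. From there each gene overlapped the next down to Slc7a8, so that only the heavy chain at the top and Slc6a19 at the bottom stood clear of their neighbours. In control xenografts the heavy chain stood alone, and Slc7a5 (15.7 ± 3.01 RPKM) and Slc1a5 (11.3 ± 3.08 RPKM) followed. Slc43a1 was near the bottom there, at 0.319 ± 0.230 RPKM, against 12.6 RPKM in control livers. In No-Trp xenografts Slc7a5 (45.6 ± 17.9 RPKM) and Slc1a5 (38.2 ± 9.55 RPKM) overlapped each other and lay clear of the 5 genes below them, of which the next was Slc16a10 at 5.45 ± 1.91 RPKM.

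**Figure D1:**
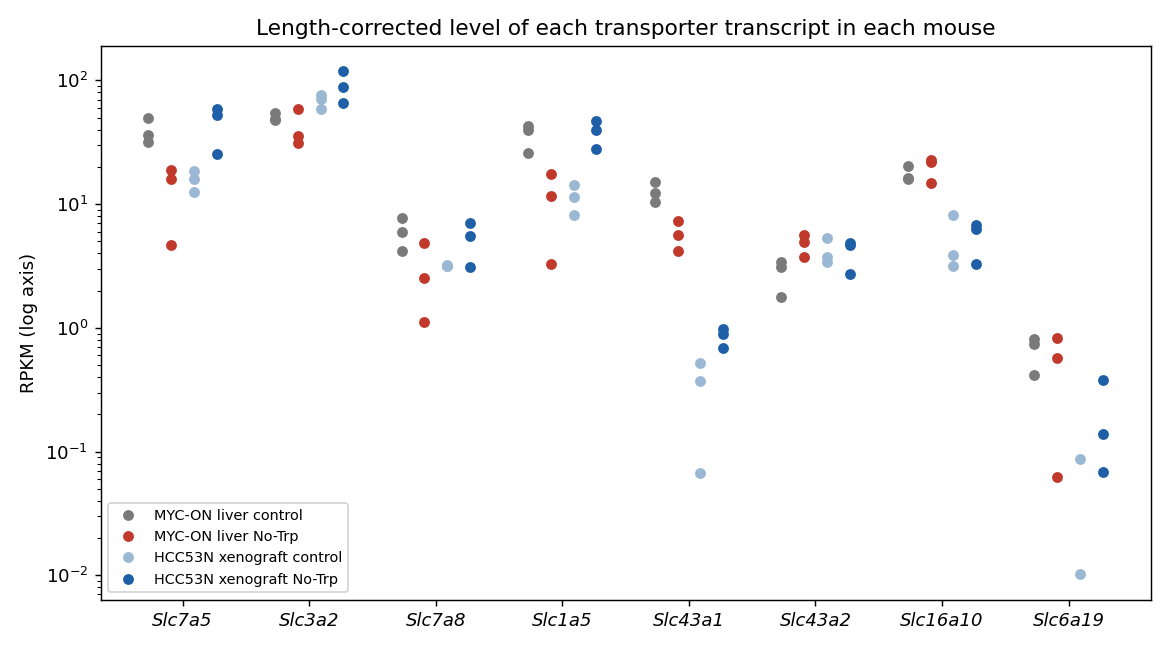
Each point is the RPKM of 1 transporter transcript in 1 mouse, on a log axis, with 4 groups of 3 mice in separate colors. Slc3a2 has the highest mean in all groups, and Slc43a1 lies between 4.17 and 15.0 RPKM in livers and between 0.0676 and 0.982 in xenografts; Slc6a19 in control xenograft 43 had 0 reads and has no point.

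The question put to each gene was whether its transcript differed between the No-Trp and control diets within a model. Calls needed both an adjusted p no larger than 0.05 in edgeR's quasi-likelihood test over all genes and a log2 fold change of 1 or more in either direction. In MYC-ON livers 1 of the 8 transporters was called lower (Slc43a1) and 0 higher, beside 7.27% of all 14122 genes called lower and 9.28% called higher. In HCC53N xenografts 7 of the 8 had enough reads to be tested, and 1 was called higher (Slc1a5) and 0 lower, beside 0.245% of all 14704 genes called higher and 0.116% called lower. At an unadjusted p under 0.05, 3 of 8 transporters were lower and 1 was higher in the livers, beside 20.6% and 21.2% of all genes, and 3 of 7 were higher and 0 lower in the xenografts, beside 7.82% and 9.07%. DESeq2 called 3 lower and 0 higher in the livers, beside 8.99% and 10.6% of all genes, and 2 higher and 0 lower in the xenografts, beside 1.63% and 0.847%. Calls over all genes moved with single libraries. They numbered 2337 in the livers, and 8 without control mouse 103, 294 without 101, 368 without No-Trp mouse 105, 1269 without 107 and 2143 to 3207 without 108 or 102. In the xenografts they numbered 53, and 9 to 36 without any one of mice 35, 36, 37, 41 and 43 and 78 without mouse 40. The median log2 fold change of the tested transporters was −0.73 in the livers and 0.70 in the xenografts, while the medians of all genes tested were −0.003 and −0.004. The difference between the models was itself tested, and 3 of 8 transporters were called higher in it, beside 6.70% of 15472 genes called higher and 6.01% called lower.

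Slc7a5 (chromosome 8, 121881150 to 121907694, minus strand, 10 exon blocks) encodes LAT1. In control livers it stood at 111 CPM in mouse 101, 128 in mouse 102 and 175 in mouse 103. On the No-Trp diet the livers had 56.1 CPM in mouse 105, 16.4 in mouse 107 and 66.4 in mouse 108. All 3 No-Trp livers lay below all 3 control livers, and mouse 107 was far below the other 2. The log2 fold change was −1.56 (standard error 0.48), or 2.94 times lower, and with an edgeR adjusted p of 0.0545 it was not called. It was called without No-Trp mouse 107 (−1.16, adjusted p = 0.0291), with DESeq2 (−1.57, adjusted p = 0.00634) and in the fit over all 12 libraries (−1.57, adjusted p = 0.0224). In the other 13 of 16 alternatives it stayed uncalled, with an adjusted p of up to 0.152 (without control mouse 103).

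In the xenografts the diets stood in the other order for Slc7a5. Control tumors had 65.4 CPM in mouse 40, 56.1 in mouse 41 and 44.3 in mouse 43. No-Trp tumors had 88.8 CPM in mouse 35, 184 in mouse 36 and 208 in mouse 37. The diets did not overlap, although mouse 35 lay closer to the control tumors than to mice 36 and 37. The log2 fold change was 1.52 (standard error 0.32), 2.86 times higher, with an edgeR adjusted p of 0.1001. It was called without No-Trp mouse 35 (1.82, adjusted p = 0.0230) and with DESeq2 (adjusted p = 0.000183). The other 14 of 16 alternatives did not call it. Among them were resubmission as a covariate (1.28, adjusted p = 0.314) and the fits without mouse 36, 37 or 43 (adjusted p = 0.212 to 0.247). The xenograft effect minus the liver effect was 3.09 (standard error 0.64, adjusted p = 0.0129), which was called.

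Slc3a2 (chromosome 19, 8706882 to 8723369, minus strand, 10 exon blocks) encodes the heavy chain that LAT1 and LAT2 need. Control livers had 148, 144 and 166 CPM in mice 101, 102 and 103, and No-Trp livers had 107, 94.1 and 177 CPM in mice 105, 107 and 108. Control xenografts had 231, 212 and 178 CPM in mice 40, 41 and 43, and No-Trp xenografts had 199.9, 359 and 265 CPM in mice 35, 36 and 37. The diets overlapped in both models. Its log2 fold change was −0.26 in livers (standard error 0.25, adjusted p = 0.473) and 0.38 in xenografts (standard error 0.22, adjusted p = 0.418), and the difference between the models, 0.67 (standard error 0.36, adjusted p = 0.221), was not called.

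The ratio of heavy chain to light chain within a mouse needs no scaling between libraries. The RPKM of Slc3a2 was 1.55, 1.31 and 1.10 times that of Slc7a5 in control livers 101, 102 and 103 and 2.21, 6.67 and 3.10 times in No-Trp livers 105, 107 and 108. In xenografts the diets stood in the other order. The ratio was 4.11, 4.41 and 4.68 in control tumors 40, 41 and 43 and 2.62, 2.27 and 1.49 in No-Trp tumors 35, 36 and 37. In neither model did the diets overlap, and the mean log2 ratio was higher by 1.45 in No-Trp livers and lower in No-Trp xenografts (a difference of −1.09). With 3 mice against 3 an exact two-sided permutation test cannot give a p under 0.1, and it gave 0.1 for both.

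Slc7a8 (chromosome 14, 54722209 to 54781946, minus strand, 11 exon blocks) encodes the second light chain, LAT2. Control livers had 17.0, 24.3 and 31.3 CPM in mice 101, 102 and 103, and No-Trp livers 19.7, 4.53 and 10.4 CPM in mice 105, 107 and 108. Mouse 107 was again the lowest, and mouse 105 lay within the control range. Control tumors lay together, at 12.8 to 13.2 CPM, and No-Trp tumors had 22.4, 12.6 and 28.8 CPM in mice 35, 36 and 37, so that mouse 36 was at the control level. The log2 fold change was −1.05 in livers (standard error 0.50, adjusted p = 0.158) and 0.70 in xenografts (standard error 0.30, adjusted p = 0.282). Neither was called, and nor was the difference of 1.76 (standard error 0.63, adjusted p = 0.0771). That difference was called with DESeq2 (1.70, adjusted p = 0.0362) and without No-Trp liver 105 (2.39, adjusted p = 0.0253). The other 19 of 21 alternatives did not call it, among them resubmission as a covariate (1.52, adjusted p = 0.166). With 1 library left out its adjusted p reached 0.172.

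Slc1a5 (chromosome 7, 16781340 to 16798274, plus strand, 9 exon blocks) encodes ASCT2, which supplies glutamine that LAT1 can exchange. Control livers had 110.3, 72.0 and 119 CPM in mice 101, 102 and 103. No-Trp livers had 31.9, 9.13 and 48.7 CPM in mice 105, 107 and 108. As for Slc7a5, no No-Trp liver reached the lowest control liver, and mouse 107 was the lowest. The log2 fold change was −1.73 (standard error 0.55), 3.33 times lower, and at an edgeR adjusted p of 0.0591 it was not called. It was called with DESeq2 (adjusted p = 0.00568), in the fit over all 12 libraries (adjusted p = 0.0174), and without control mouse 102, No-Trp mouse 107 or No-Trp mouse 108 (adjusted p = 0.0423, 0.0372 and 0.0468). In the other 11 of 16 alternatives it stayed uncalled, with an adjusted p of up to 0.149 (without control mouse 103).

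Among xenografts Slc1a5 rose on the No-Trp diet. Control tumors had 39.4, 31.6 and 22.4 CPM in mice 40, 41 and 43, and No-Trp tumors 77.5, 109 and 129.8 CPM in mice 35, 36 and 37. Every No-Trp tumor lay above every control tumor. This was a log2 fold change of 1.74 (standard error 0.26), 3.34 times higher, with an edgeR adjusted p of 0.0436. The call was lost without No-Trp mouse 36 or 37 or control mouse 41 or 43 (1.55 to 1.74, adjusted p between 0.104 and 0.144), with the mark of resubmission as a covariate (1.40, adjusted p = 0.186), in the fit over all 12 libraries (1.75, adjusted p = 0.149) and with at least 10 counts in every library (1.75, adjusted p = 0.0620). The xenograft effect minus the liver effect was 3.49 (standard error 0.67, adjusted p = 0.0109).

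Slc43a1 (chromosome 2, 84838850 to 84863594, plus strand, 16 exon blocks) encodes LAT3, a facilitated carrier of neutral amino acids. Control livers had 37.7, 54.2 and 44.7 CPM in mice 101, 102 and 103, and No-Trp livers 20.3, 15.1 and 26.4 CPM in mice 105, 107 and 108. The diets did not overlap, and Slc43a1 fell on the No-Trp diet, by a log2 fold change of −1.13 with a standard error of 0.25 (edgeR adjusted p = 0.0248), which is 2.18 times lower. The call was lost without any one of mice 101, 102, 103, 105 and 107, either at the adjusted p (0.0559 to 0.0912 without 101, 103 or 105) or at the threshold on the fold change (−0.998 without 102 and −0.95 without 107), and in the fit over all 12 libraries (adjusted p = 0.0609). The direction held in all of these fits.

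In the xenografts Slc43a1 rested on few reads. Control tumors had 5, 47 and 22 reads in mice 40, 41 and 43, or 0.244, 1.88 and 1.33 CPM. No-Trp tumors had 97, 74 and 76 reads in mice 35, 36 and 37, or 3.55, 2.50 and 3.21 CPM. All No-Trp tumors lay above all control tumors, and mouse 40 was far below the others. The log2 fold change of 1.39 (standard error 0.62, adjusted p = 0.305) was not called, and nor was it at 0.91 without mouse 40 (adjusted p = 0.361) or at 3.61 with the mark of resubmission as a covariate (adjusted p = 0.157). The difference between the models, 2.53 (standard error 0.64, adjusted p = 0.0239), was called, and was not without control liver 103 (adjusted p = 0.0551) or No-Trp liver 107 (adjusted p = 0.0512).

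Slc43a2 (chromosome 11, 75531694 to 75577575, plus strand, 15 exon blocks) encodes LAT4, the closest relative of LAT3. Control livers had 12.9, 24.4 and 22.3 CPM in mice 101, 102 and 103, and No-Trp livers had 40.6, 35.4 and 27.1 CPM in mice 105, 107 and 108. It was the one transporter whose No-Trp livers all lay above the control livers, and at a log2 fold change of 0.81 (standard error 0.28, adjusted p = 0.0688) it was not called. With library totals No-Trp mouse 108 (23.7 CPM) lay just below control mouse 103 (24.0 CPM), so that the diets overlapped, and the log2 fold change was 0.50 (adjusted p = 0.277). In xenografts the diets overlapped, at 24.4 to 38.6 CPM on the control diet and 19.5 to 34.6 CPM without Trp (log2 fold change −0.07, adjusted p = 0.922), and the sign of that value turned under 5 alternative settings. The gene shares 548 exon bases with the antisense gene Gm45606, which the files do not count, and how the counting used strand is not given in the sources used here.

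Within the livers the balance of the pair stood apart between the diets. In control livers the RPKM of Slc43a2 was 0.172 to 0.250 times that of Slc43a1, and in No-Trp livers 0.517 to 1.18 times. The mean log2 ratio was higher by 1.99 in No-Trp livers, with an exact two-sided permutation p of 0.1, the smallest possible. In xenografts Slc43a2 was the larger in every mouse, by 7.25 to 50.3 times on the control diet and 3.04 to 6.76 times on the No-Trp diet.

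Slc16a10 (chromosome 10, 40033532 to 40142258, minus strand, 6 exon blocks) encodes TAT1, which carries aromatic amino acids, Trp among them. Control livers had 104, 108 and 134 CPM in mice 101, 102 and 103, and No-Trp livers had 149, 144 and 96.5 CPM in mice 105, 107 and 108. Mouse 107, which was lowest for Slc7a5, Slc1a5 and Slc7a8, was among the higher livers for this gene. Control xenografts had 53.9, 25.3 and 20.9 CPM in mice 40, 41 and 43, and No-Trp xenografts 41.2, 44.7 and 21.5 CPM in mice 35, 36 and 37. The diets overlapped in both models. It had a log2 fold change of 0.19 in livers (standard error 0.21, adjusted p = 0.517) and −0.12 when libraries were scaled by their totals alone, and it was 0.07 in xenografts (standard error 0.41, adjusted p = 0.949), where the sign turned under 6 alternative settings. The transcript of the aromatic carrier therefore had no diet effect that could be told from the spread between mice.

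Slc6a19 (chromosome 13, 73679745 to 73704865, minus strand, 12 exon blocks) encodes B0AT1 and was close to the limit of counting. Control livers had 34, 57 and 73 reads in mice 101, 102 and 103, and No-Trp livers 57, 4 and 29 reads in mice 105, 107 and 108. Control xenografts had 7, 1 and 0 reads in mice 40, 41 and 43, and No-Trp xenografts 15, 8 and 35 reads in mice 35, 36 and 37. A count of 0 in mouse 43 allows up to 3 reads, or 0.182 CPM, for counting error only. The liver log2 fold change was −0.42 (standard error 0.74, adjusted p = 0.700), and without No-Trp mouse 107 it was 0.10. Too few reads were left for a test in the xenografts.

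**Figure D2:**
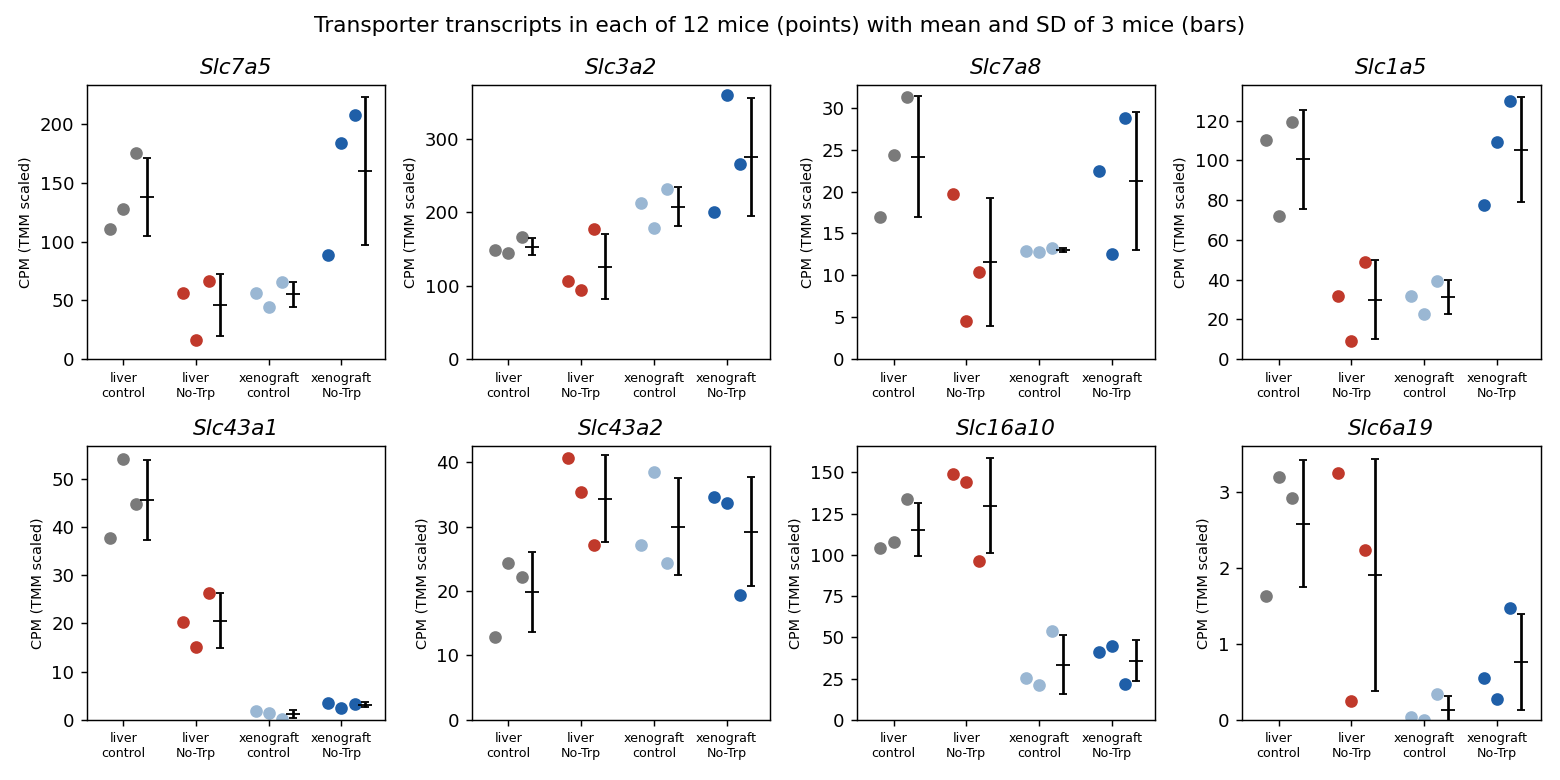
Each point is the CPM of 1 transporter transcript in 1 mouse, from left to right mice 101, 102, 103, then 105, 107, 108, then 41, 43, 40, then 35, 36, 37, with the mean and SD of each group of 3 as a bar (the lower arm for Slc6a19 in control xenografts is cut at 0). Slc7a5 and Slc1a5 have the same shape, lower without Trp in livers and higher without Trp in xenografts, and Slc16a10 overlaps between the diets in both models.

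**Figure D3:**
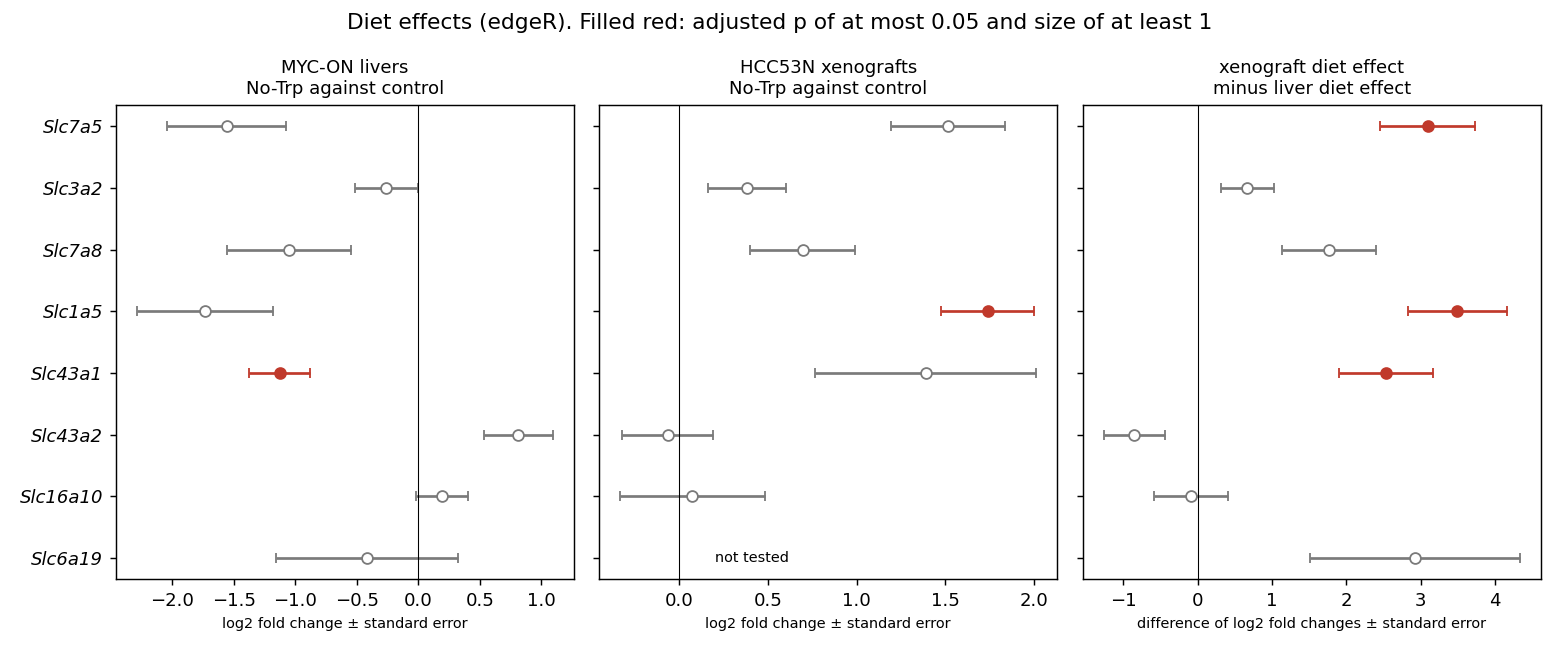
Log2 fold changes with their standard errors for the No-Trp against the control diet in livers (left) and in xenografts (middle), and their difference (right), each panel with its own axis. Filled red points passed both thresholds, which are Slc43a1 in livers, Slc1a5 in xenografts, and Slc7a5, Slc1a5 and Slc43a1 for the difference.

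Counts of diets that did not overlap were 4 of 8 transporters in livers (Slc7a5, Slc1a5, Slc43a1 and Slc43a2), beside 48.7% of all genes tested, and 3 of 7 in xenografts (Slc7a5, Slc1a5 and Slc43a1), beside 22.4%. The liver share is close to that of all genes, and with library totals it was 3 of 8 beside 48.6%, without Slc43a2, and 3 of 7 beside 23.3% in the xenografts. Slc7a5, Slc1a5 and Slc43a1 were in both counts and had opposite signs in the 2 models. Both diet comparisons have their own controls, so that no library is shared between the livers' value and the xenografts' value. When the 4 libraries with the mark of resubmission were left out, which leaves 2 mice per group in the livers and 1 control against 3 No-Trp tumors in the xenografts, no transporter was called within a model. In that fit the difference between the models was 3.34 for Slc7a5 (adjusted p = 0.103) and 3.62 for Slc1a5 (adjusted p = 0.0860), both larger than with all libraries, and for Slc43a1 it was 5.09 (adjusted p = 0.0457), set against the 5 reads of mouse 40 alone. The lone control tumor is assumed to vary as the other groups do. Between livers 101 and 108, which both carry the mark, the log2 ratio of No-Trp to control was −0.74 for Slc7a5, −1.18 for Slc1a5, −0.51 for Slc43a1 and 1.08 for Slc43a2. No pair of marked xenografts crosses the diets.

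Slc7a5 and Slc1a5 followed each other across the mice. Each was the nearest gene to the other of 15471 genes when log2 CPM values, centred on each gene's mean, were compared over the 12 libraries, with a root mean square difference of 0.28 on the log2 scale. All points come from the same libraries and share their scaling and cell mixture, so the distance is a description. The ratio of their RPKM stayed between 0.790 and 1.55 in all 12 mice, while Slc7a5 itself ranged from 16.4 to 208 CPM. Its mean log2 ratio differed between diets by 0.24 in livers and −0.30 in xenografts (exact two-sided permutation p = 0.6 and 0.2).

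Next nearest to Slc7a5 were the cationic amino acid transporter Slc7a1 (0.29) and the proline synthesis enzyme Aldh18a1 (0.36), and next nearest to Slc1a5 were the mitochondrial one-carbon enzyme Mthfd2 (0.38) and again Slc7a1 (0.40). The heavy chain Slc3a2 was only the gene ranked 845 from Slc7a5. Its own nearest genes were Tacc2, the arginyl-tRNA synthetase gene Rars and Camk2n2, at 0.21 to 0.23. Those nearest to Slc7a8 were Icosl, Stk39 and the macrophage gene Cd68 (0.34 to 0.35), and with library totals Ppl took the place of Cd68. Slc43a1 had no close neighbour (Lrp3, Tmem144 and Cgn, 0.55 to 0.60), Slc43a2 had Pcmtd2, Mbd1 and Tmem63b (0.23 to 0.24) and Slc16a10 had Depdc7, Mob3b and Adi1 (0.22 to 0.26). Apart from Ppl, the 3 nearest genes of each transporter were the same with library totals.

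**Figure D4:**
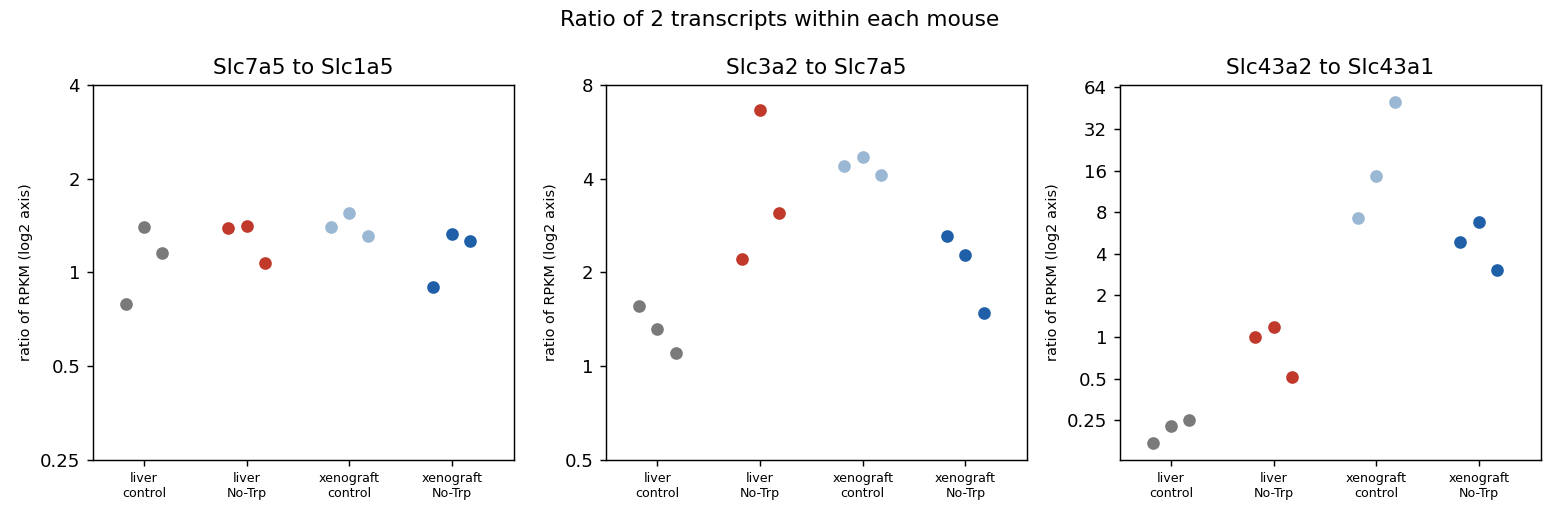
Ratio of the RPKM of 2 transcripts within each mouse, on log2 axes, for Slc7a5 to Slc1a5 (left), Slc3a2 to Slc7a5 (middle) and Slc43a2 to Slc43a1 (right), with mice in the same order in each group as in the plot of CPM by mouse. The first ratio lies between 0.790 and 1.55 in all mice, and the other 2 have no overlap between diets in either model.

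Other transporters of amino acids were read from a list of 37 genes. In the livers 25 of them were tested, of which 4 rose and 3 fell, beside 9.28% of all genes called higher and 7.27% lower, with a median log2 fold change of 0.05. DESeq2 called 5 higher and 6 lower, beside 10.6% and 8.99%. Those that rose on the No-Trp diet were the system N glutamine carrier Slc38a3 (2.51, adjusted p = 0.0278), the hepatocyte system A carrier Slc38a4 (2.23, adjusted p = 0.0196), the hepatocyte cationic carrier Slc7a2 (2.22, adjusted p = 0.0144) and Slc36a4 (2.13, adjusted p = 0.0199), a carrier that takes Trp and proline. Those that fell were the glutamate carrier Slc1a1 (fell by 5.55, adjusted p = 0.0236), the proton-coupled carrier Slc36a2 (fell by 2.78, adjusted p = 0.0300) and Slc7a1 (fell by 1.66, adjusted p = 0.0467). Slc1a1 had 131, 9 and 78 reads in control livers 101, 102 and 103 and at most 0.114 CPM in the No-Trp livers. It entered the liver fit only through the control livers, so that its call as lower on the No-Trp diet carries little weight. Without control mouse 103 none of these 7 genes was called, and Slc1a1 was then not tested. Without control mouse 101 only Slc7a2 was still called, and Slc1a1 was again not tested. Without No-Trp mouse 105 only Slc38a4 and Slc7a2 were still called. Without No-Trp mouse 107 the calls of Slc38a3 and Slc1a1 were lost (adjusted p = 0.0613 and 0.0614). In xenografts 24 were tested and 0 were called by edgeR, while 8 were higher and 1 was lower at an unadjusted p under 0.05, beside 7.82% and 9.07% of all genes, and DESeq2 called 6 higher and 0 lower, beside 1.63% and 0.847%. The largest values in this list, named after they were seen, were those of Slc7a10, a light chain of Slc3a2 (4.60, adjusted p = 0.0506), the glutamate carrier Slc1a3 (3.66, adjusted p = 0.132) and Slc36a2 (3.54, adjusted p = 0.0506). These genes entered the xenograft fit only through the No-Trp tumors, so that their values carry little weight. In control tumors 40, 41 and 43 Slc7a10 had 2, 9 and 0 reads, Slc1a3 had 2, 44 and 3, and Slc36a2 had 3, 19 and 12. Control mouse 41 had 1.76 CPM of Slc1a3 against at most 0.182 CPM in the other control tumors. Without mouse 41 Slc1a3 was called (5.99, adjusted p = 0.0316), set against the 2 and 3 reads of mice 40 and 43. Adipocyte markers in the same tumors summed to 432 to 887 CPM on the No-Trp and 21.8 to 76.8 CPM on the control diet. The part of fat cells in the values of Slc7a10, Slc1a3 and Slc36a2 was not tested. In the difference between the models 6 of 27 were called higher and 1 lower, beside 6.70% and 6.01%.

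The other light chains that pair with Slc3a2 are also part of that list, so their counts are not separate from it. Slc7a6, Slc7a7 and Slc7a11 were tested in livers and these and Slc7a10 in xenografts, and 0 were called by edgeR in either. At an unadjusted p under 0.05, 1 was lower in livers, beside 20.6% of all genes, and 2 were higher in xenografts, beside 7.82%. DESeq2 called the same numbers, beside 8.99% and 1.63%. In the difference between the models 2 of 4 were called higher, beside 6.70% of all genes. These were Slc7a6 (2.03, adjusted p = 0.0358) and Slc7a10 (4.96, adjusted p = 0.0456). Slc7a10 was at 3.41 to 5.29 CPM in No-Trp xenografts and at most 0.450 CPM in all other libraries. It had too few reads for a test in the livers and entered the fit over 12 libraries only through the No-Trp xenografts. Its difference therefore rests on the group where it was high and says little about the livers.

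Targets of ATF4 that are not transporters were read from a list of 21 genes. Of 21 tested in livers 7 rose and 0 fell, beside 9.28% and 7.27% of all genes, yet the median log2 fold change was −0.04 and 11 were negative. At an unadjusted p under 0.05, 8 were higher and 4 lower, beside 21.2% and 20.6%, and DESeq2 called 8 higher and 4 lower, beside 10.6% and 8.99%. The largest were the starvation hormone gene Fgf21 (4.14, adjusted p = 0.00713), the lipoprotein receptor gene Vldlr (3.42, adjusted p = 0.0108), the pseudokinase gene Trib3 (2.50, adjusted p = 0.0357) and the transcription factor gene Atf5 (2.18, adjusted p = 0.0142), and Cebpb, Sesn2 and Cth rose as well. Trib3 stood at 26.7, 29.7 and 126 CPM in No-Trp mice 105, 107 and 108, and without mouse 108 its value was 1.40 (adjusted p = 0.0346). Its call was lost without any one of the other 5 mice (adjusted p = 0.0515 to 0.112), and without control mouse 103 none of the 7 was called. The call of Cth was also lost without mouse 105, 107 or 108 (adjusted p = 0.0504 to 0.0673). Those of Cebpb and Sesn2 were also lost without mouse 101 (adjusted p = 0.0518 and 0.0554). The enzymes Mthfd2 (−1.59, adjusted p = 0.138) and Aldh18a1 (−1.57, adjusted p = 0.0842), which had patterns close to those of Slc1a5 and Slc7a5, were negative in the same livers and not called. In the xenografts 20 were tested. Of these 15 were positive with a median of 0.74, 0 were called higher by edgeR, and the C/EBP factor gene Cebpb fell by 1.25 (adjusted p = 0.0235), a call lost without any one of mice 35, 37, 41 and 43. At an unadjusted p under 0.05, 9 were higher and 3 lower, beside 7.82% and 9.07% of all genes, and DESeq2 called 5 higher and 1 lower, beside 1.63% and 0.847%. In the difference between the models 4 of 21 were called higher, beside 6.70% of all genes, and 4 lower, beside 6.01%. Higher were Mthfd2 (3.13, adjusted p = 0.0393), Asns, Aldh18a1 (2.48, adjusted p = 0.0332) and Shmt2, and lower were Vldlr, Fgf21, Cebpb and Nupr1. Mthfd2 and Aldh18a1 had been picked as near neighbours of Slc1a5 and Slc7a5 over the same 12 libraries, so their direction here is no separate evidence.

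Marker lists of other cells and of cell division were summed too, and several sums differed between the diets. Over all genes in the livers 9.28% were called higher, 7.27% were called lower and 48.7% did not overlap between the diets. Counts near these shares, and sums that only do not overlap, are no mark of a list. In bulk tissue, fewer cells of a type and less RNA per cell cannot be told apart. Proliferation markers summed to 1296 to 1473 CPM in control livers and 94.0 to 423 CPM in No-Trp livers, with 6 of 8 called lower and the lowest sum in mouse 107, the mouse with the lowest Slc7a5, Slc1a5 and Slc7a8. Hepatocyte markers summed to 14192 to 48730 CPM in control and 65239 to 158255 CPM in No-Trp livers (7 of 15 called higher), with the highest sum in mouse 107. Erythroid markers went from 76.0 to 725 CPM in control to 21.5 to 36.8 CPM in No-Trp livers (6 of 9 tested called lower), and the globin genes Hbb-bs and Hbb-bt were at 0 in every library. Neutrophil markers went from 164 to 190 CPM down to 8.33 to 93.1 CPM (1 of 7 called lower). In livers the macrophage sums overlapped between diets, at 540.3 to 743 and 437 to 844 CPM, and endothelial sums did not, at 139 to 282 and 304 to 464 CPM (2 of 10 called higher).

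In xenografts, adipocyte markers summed to 21.8 to 76.8 CPM on the control and 432 to 887 CPM on the No-Trp diet, with 4 of 8 called higher, and muscle markers to 3.47 to 22.4 and 35.1 to 69.5 CPM, with 0 of 8 called by edgeR, 1 by DESeq2 and 6 at an unadjusted p under 0.05. The adipocyte gene Adipoq was at 0.782 to 2.20 CPM and 19.0 to 57.4 CPM. Over all genes in the xenografts edgeR called 0.245% higher and 0.116% lower, and DESeq2 1.63% and 0.847%. At an unadjusted p under 0.05 the shares were 7.82% and 9.07%, and 22.4% of all genes did not overlap between the diets. Proliferation markers summed to 497 to 538 CPM in control tumors and 632 to 800.4 CPM in No-Trp tumors with 0 of 8 called by edgeR and by DESeq2 and 5 at an unadjusted p under 0.05. Endothelial sums were 126 to 226 CPM in control and 249.97 to 427 CPM in No-Trp tumors (0 of 10 called by edgeR, 2 higher by DESeq2, 3 higher at an unadjusted p under 0.05), and neutrophil sums 10.8 to 12.1 and 18.8 to 35.2 CPM (4 tested, 0 called by either tool, 3 higher at an unadjusted p under 0.05). Keratinocyte sums overlapped, at 42.7 to 199 and 43.7 to 68.3 CPM, and 1 of 6 tested was called lower. Sums not given here for a model, of these or the other lists, overlapped between its diets. In both models the group of mice with the higher proliferation sum was the one with the higher Slc7a5 and Slc1a5. The part of these cells in the transporter values was not tested.

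**Figure D5:**
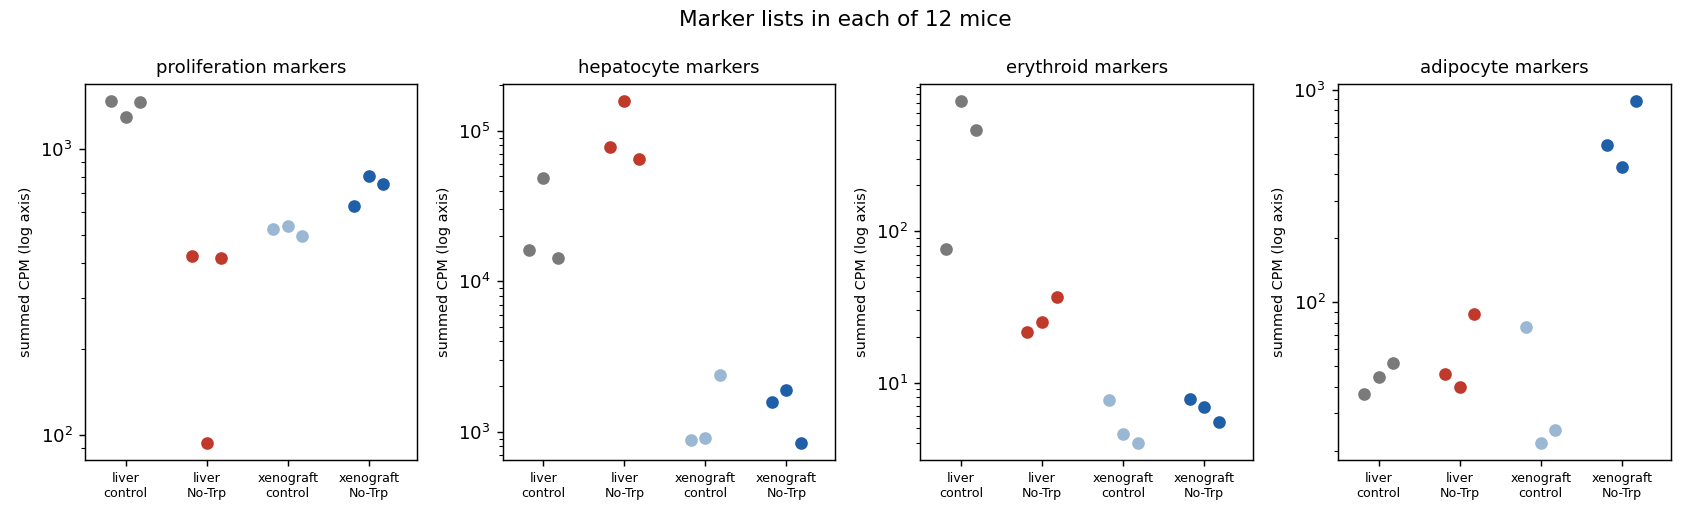
Summed CPM of 4 marker lists in each of the 12 mice, on log axes, with mice in the same order in each group as in the plot of CPM by mouse. Proliferation markers lie lower without Trp in livers (94.0 to 423 against 1296 to 1473 CPM) and adipocyte markers lie higher without Trp in xenografts (432 to 887 against 21.8 to 76.8 CPM).

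Set against the livers on the same diet, the xenografts had another mix of transporters, in a comparison that cannot be told apart from sex, strain, site and cell mixture. On the control diet 5 of 8 were called lower in xenografts and 0 higher, beside 20.2% of all genes called lower and 23.3% higher. LAT3 differed most, with Slc43a1 lower by a log2 fold change of −5.28 (standard error 0.52, adjusted p = 3.91e-06) and a range over all alternatives from −7.62 to −4.81. Slc6a19 (−4.26), Slc16a10 (−1.78), Slc1a5 (−1.69) and Slc7a5 (−1.32) were the others called. With 7, 1 and 0 reads in control xenografts 40, 41 and 43, Slc6a19 was too low for a test within the xenografts. It entered this fit only through its reads in livers, so that its call as lower in xenografts carries little weight. The call of Slc7a5 was lost with library totals (adjusted p = 0.0585) and without control liver 103 or control xenograft 41 or 43 (adjusted p = 0.0617 to 0.0804). All 8 transporters had no overlap between the models, as had 65.0% of all genes.

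On the No-Trp diet Slc7a5 (1.78, adjusted p = 0.00535), Slc1a5 (1.81, adjusted p = 0.00632) and Slc3a2 (1.11, adjusted p = 0.00257) were called higher in xenografts, and Slc43a1 (−2.75) and Slc16a10 (−1.88) were called lower. Over all genes in this comparison the median fold change on the log2 scale was 0.15, and 0.68 with library totals. Thus 3 of 8 were called higher beside 24.5% of all genes and 2 lower beside 19.1%, and 5 did not overlap beside 67.0%. The call of Slc3a2 was lost at the threshold on the fold change without liver 105, liver 107 or xenograft 36 (0.874 to 0.998). The aromatic carrier Slc16a10 was lower in xenografts on both diets by nearly the same amount, and Slc7a5 and Slc1a5 changed their side with the diet.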

How the data were processed

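Polyadenylated RNA of 12 mice was sequenced. The deposited counts are whole reads per gene symbol, not normalized, which the authors made with Trim Galore, STAR 2.7.2b (mm10), SAMtools 1.9 and HTSeq. The strand setting and the rule for overlapping genes are not given in the sources used here. Reads left out by that counting (24.7% to 39.4% per library) entered neither totals nor tests. The libraries of each group differed by 34.6 to 274 times the counting noise, so none was counted as a duplicate.

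The 8 genes were compared in edgeR 4.0.16 in R 4.3.3 (TMM factors, filter filterByExpr, robust glmQLFit and a two-sided glmQLFTest) fitted to all genes, within each model and, for the difference and the models, over all 12 libraries, with Benjamini-Hochberg adjustment over all genes tested. The standard error is the log2 fold change divided by the square root of F. With 3 mice per group the spread between mice, not depth, limits most values: the biological coefficient of variation was 31.6% in livers and 28.7% in xenografts. Exon lengths and positions are those of GENCODE M21 on GRCm38, and the promoter windows are from RefSeq.

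All 8 genes were named. From the lists of heavy chain partners, other transporters and ATF4 targets, the genes called in a diet comparison were named, with values for at most the 4 largest per list and model. For each transporter with a mean normalized count of at least 100, the 3 nearest genes were named. Any other gene was chosen after its values were seen, and 1 short list is not reported here. The 8 genes, the lists and the tests were chosen with earlier results of these data known. Alternatives were DESeq2 1.42.0, RLE factors, library totals, no filter, at least 10 counts in every library, Rn45s left out, resubmission as a covariate, no threshold on the fold change, one fit over all 12 libraries, and leaving out each library. Leaving out the 4 resubmitted libraries was an alternative chosen after seeing the data. The fits were tested on simulated data.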

Additional observations from a re-analysis of the deposited data

Results flagged for a closer look

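For 3 transporters the effect of the No-Trp diet differed between HCC53N xenografts and MYC-ON livers in the test of the difference itself (edgeR, interaction over 12 libraries). The difference of log2 fold changes was 3.09 for Slc7a5, 3.49 for Slc1a5 and 2.53 for Slc43a1, beside 6.70% of all genes called higher. In each case all 3 No-Trp livers lay below all 3 control livers and all 3 No-Trp tumors lay above all 3 control tumors. Over all genes 48.7% did not overlap between the diets in livers and 22.4% in xenografts. Slc43a1 had 5 to 47 reads in control tumors, and its call was lost without control liver 103 or No-Trp liver 107. Groups of 3 mice are too small for the search for single outlying samples.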

How the results depend on the processing

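No paired analysis was possible because no 2 groups share replicate numbers. In the livers, where 1 transporter was called, 3 were with DESeq2 and 2 in one fit over all 12 libraries, against 0 without the 4 resubmitted libraries and 0 to 2 with each library left out in turn. In the xenografts, where 1 was called, the count was 2 with DESeq2, 0 with at least 10 counts in every library, 0 with resubmission as a covariate, 0 in one fit over all 12 libraries, 0 without the 4 resubmitted libraries and 0 to 2 with each library left out. For the difference between the models, 3 were called, 1 without the 4 resubmitted libraries and 2 to 4 with each library left out. Between the models on the control diet 5 were called, 3 with at least 10 counts in every library, where Slc43a1 and Slc6a19 were no longer tested, 1 without the 4 resubmitted libraries and 4 to 5 with each library left out. On the No-Trp diet 5 were called and 4 to 5 with each left out. Calls over all genes moved too. In the livers they went from 2337 to 3046 with DESeq2, 2759 in one fit, 0 without the resubmitted libraries and 8 to 3207 with each library left out, and in the xenografts from 53 to 380, 23, 0 and 9 to 78, with 15 at 10 counts or more and 4 with the covariate. Other causes were not tested.

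None of the values whose sign turned was called with all libraries. Signs turned for Slc16a10 in livers with library totals (−0.12), for Slc6a19 in livers without No-Trp mouse 107 (0.10, in a range of −1.06 to 0.10 with each mouse left out), and for Slc43a2 on the No-Trp diet between the models with library totals (0.29). In xenografts Slc43a2 turned with library totals (0.047), resubmission as a covariate (0.23), without No-Trp mouse 37 (0.16), without control mouse 43 (0.16; range −0.20 to 0.16 with each left out) and without the resubmitted libraries (0.23). Slc16a10 turned there with resubmission as a covariate (−0.62), without mouse 35 (−0.02), 36 (−0.11), 41 (−0.10) or 43 (−0.17; range −0.17 to 0.60) and without the resubmitted libraries (−0.62). Its difference between the models turned with library totals (0.32) and without mouse 105 (0.02), 107 (0.0009), 37 (0.17) or 40 (0.44; range −0.34 to 0.44). Of 640 values of single transporters under all alternatives 577 kept their sign and their side of the thresholds, 30 were no longer called, 14 became called and 19 turned. With library totals all genes had medians of −0.30 in livers, 0.11 in xenografts and 0.41 for the difference on the log2 scale, and 31 of 32 group levels stayed within 1 SD (Slc7a8 in control xenografts moved to 14.2 CPM).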
